A study of Homo sapiens with 3 samples.

Results

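The 9 genes described here encode carriers that move amino acids across the plasma membrane. They were chosen by symbol, from a list of such carriers, out of 51136 genes in a table of read counts, and each of the 9 had a row. The cells were PANC-1, an established human pancreatic cancer line, profiled by RNA-seq in 3 libraries. The control library came from cells given no agent, the Rg3 library from cells given 200 μM Ginsenoside Rg3, a compound of ginseng, and the TAM library from cells given 50 μM tamoxifen, an antiestrogen. Both treatments lasted 24 h, and no vehicle is named for the control. The study set these profiles side by side to see how each agent changed gene expression. There was 1 library per condition, so no difference has a replicate check, and 95% intervals below (exact) cover counting error only. Bulk counts cannot separate fewer cells of a kind from less RNA per cell.

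Cells take up amino acids through a few carrier families with different tasks. SLC7A5 (LAT1) is the exchanger for leucine and other large neutral amino acids and reaches the membrane only with its heavy chain SLC3A2 (CD98), which also carries SLC7A6 (y+LAT2) and the cystine exchanger SLC7A11 (xCT). SLC7A1 (CAT1) brings in arginine and lysine. SLC1A4 (ASCT1) and SLC1A5 (ASCT2) exchange small neutral amino acids and glutamine, SLC38A1 and SLC38A2 (SNAT1 and SNAT2) take up glutamine and alanine with sodium, and SLC6A9 (GlyT1) takes up glycine. Several of these genes are known targets of ATF4, the transcription factor that answers amino acid shortage, and the leucine they bring in is sensed by the kinase complex mTORC1. Pancreatic cancers are known to rely strongly on glutamine.

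Letters of the composite element that C/EBP and ATF factors bind, TGATGNAA on either strand, were searched in promoter windows (GRCh38.p14). Windows ran from 250 bases before to 50 bases after a RefSeq start. For each gene named here only the first start listed was used. For SLC3A2 and SLC38A1 that start lies inside the GENCODE gene span given further on, downstream of its first base, so their windows stand at an internal start. The starts of SLC38A2, SLC1A4, SLC6A9 and SLC7A6 also lie inside their spans, nearer to the first base. That of SLC7A5 lies just upstream of its span. All 9 members had a window, and 3 of them held the letters, against 3.62% of 35116 windows of this length. The stretches are shown because they are the only matches among the members, beside that of ASNS, the textbook case of amino acid control. Of 4 genes searched for comparison, ASNS and CHAC1 held the letters, and TRIB3 and DDIT3, also of the ATF4 arm, did not. Capitals mark the matched letters, and each stretch is written along the strand of its gene. A match describes the sequence and is not a test of binding.
SLC7A1, chr13:29595664-29595691, minus strand: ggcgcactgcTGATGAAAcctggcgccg
SLC38A1, chr12:46266503-46266530, minus strand: cagacccgaaTGATGAAAagggatcagc
SLC3A2, chr11:62881726-62881748, plus strand: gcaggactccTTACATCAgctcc
ASNS, chr7:97872459-97872486, minus strand: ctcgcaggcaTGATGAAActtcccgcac
The palindrome CACGTG (E-box, on both strands by its nature) was found in the window of SLC7A5 alone among the members, 130 bases before the start, and in 7.26% of all windows. The sterol element TCACNCCAC was found for SLC1A4 alone (1.13% of all windows), and the GC box GGGCGG for 8 of the 9, all but SLC1A4 (15786 of the 35116 windows), both searched on either strand.

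Reads counted on genes came to between 11300766 and 12861693 per library, so that a gene listed at 0 may still have stood at up to 3 counts per library. Of 5 markers of duct-like carcinoma cells, KRT8 had 15329, 7817 and 14411 counts in the control, Rg3 and TAM libraries, and KRT18 had 11216, 7406 and 13162. KRT19 had 665, 290 and 181, KRT7 had 248, 93 and 345, and EPCAM had only 26, 26 and 8. The acinar and endocrine markers examined had 0 counts in each. Of the 5 duct-like markers, 4 were called lower with Rg3 (19.5% of all genes compared). With TAM 2 were lower (23.8%) and 1, KRT7, was higher (17.4%). After removal of the trend described below, 3 were lower with Rg3 (10.3% of all genes), and 2 were lower and 0 higher with TAM (16.4% and 12.2%). Of the 4 fibroblast markers COL1A1 had 1853, 1005 and 734 counts and the others 0 to 2, and of the 3 leukocyte markers CD14 had 97, 46 and 37 and the others 0 to 1. COL1A1 and CD14 were called lower with both agents, but after that removal COL1A1 with Rg3 (-0.57) was within the limits. The part of such shifts in the results below was not tested. Fold changes are given on the log2 scale after edgeR's TMM scaling. A gene is called higher or lower when either library of the pair held 10 counts or more and its fold was over 1.5 or under 0.67. These are the fold limits of the study's methods, used here without a p-value. Both treated libraries are set against the same control library. Division by library totals instead would put each log2 fold change up by 0.14 with Rg3 and down by 0.21 with TAM. In genes with at least 50 counts, fold changes followed the GC content of the transcript (Spearman's rho -0.82 across 11583 genes with Rg3 and 0.52 across 11022 genes with TAM). For the 9 members these values were -0.80 and 0.77. Genes share libraries and are not replicates, so these are descriptions. Each fold change of a member is therefore also given after subtraction of a smooth curve on GC content and transcript length, called the trend below. The part of base composition in the responses was not tested beyond this.

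With Rg3, 2 of 9 members were called higher (SLC38A1 and SLC38A2) and 1 lower (SLC6A9). Of all 16487 genes compared, 25.0% were called higher and 19.5% lower. With TAM, 4 members were called higher (SLC3A2, SLC1A4, SLC1A5 and SLC6A9) and 1 lower (SLC38A1), against 17.4% higher and 23.8% lower among 16079 genes. Library totals would turn these splits over all genes, 4122 higher and 3223 lower with Rg3 and 2799 and 3823 with TAM, into 5180 and 2321 and into 1576 and 5259. The median log2 fold change of the members was -0.06 with Rg3 and 0.27 with TAM, against 0.04 and -0.02 over all genes compared. Once this trend was removed, 0 members were called higher and 1 lower with Rg3 (8.28% and 10.3% of 14279 genes), and 2 were called higher and 0 lower with TAM (12.2% and 16.4% of 14019 genes). SLC6A9 kept its call in both treated libraries and SLC1A4 its call with TAM. The members' calls were thus near the background with Rg3. With TAM their share called higher was 44.4% beside 17.4% of all genes, and after removal of the trend 22.2% (2 of 9) beside 12.2%. The members are few and were chosen with earlier results of these data known, so these shares are descriptions and were not tested.

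**Figure D1:**
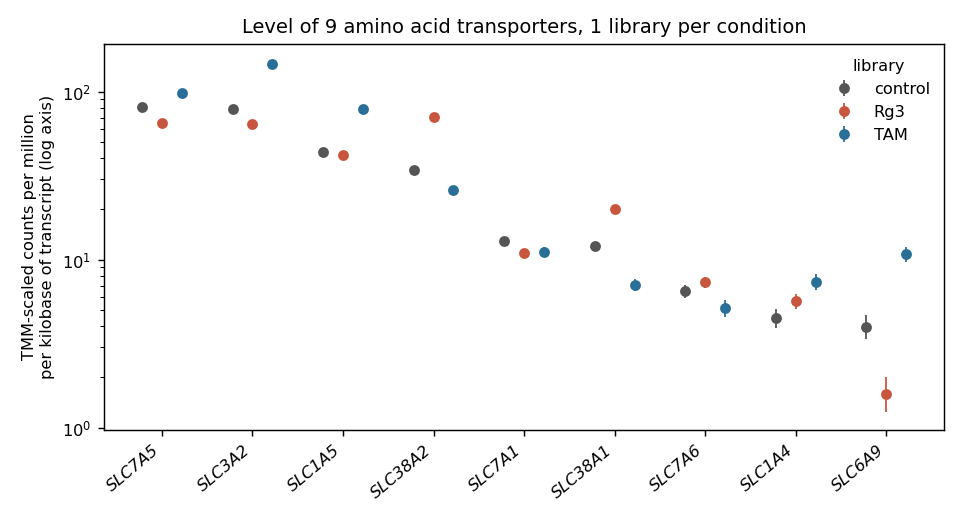
Level of each member in the control, Rg3 and TAM libraries, as TMM-scaled CPM per kilobase of transcript on a log axis, with 1 point per library and bars for the exact 95% counting interval. SLC7A5 and SLC3A2 lead in the control library at about 80.8 and 78.8, and SLC6A9 is the lowest there at 3.98.

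Levels per length in the control library ran from SLC7A5, with 80.8 TMM-scaled CPM (counts scaled to a common library size) per kilobase, and SLC3A2, with 78.8, down to SLC1A5 (43.9), SLC38A2 (34.0), SLC7A1 (12.9), SLC38A1 (12.1), SLC7A6 (6.46), SLC1A4 (4.49) and SLC6A9 (3.98). The counting intervals of SLC7A5 and SLC3A2 overlapped, as did those of SLC7A1 and SLC38A1 and those of SLC1A4 and SLC6A9. In the Rg3 library SLC38A2 moved to the head of the order with 71.0, ahead of SLC7A5 (64.6) and SLC3A2 (64.2). This order rests on levels with the trend left in, since with it removed SLC38A2 differed from control 1.16-fold and SLC7A5 1.23-fold. In the TAM library SLC3A2 stood first with 146, followed by SLC7A5 (97.7) and SLC1A5 (78.2), and SLC6A9 (10.7) came close to SLC7A1 (11.1). Of the reads on the 9 genes, SLC38A2 took 15.1% in control, 28.4% in Rg3 and 9.31% in TAM, whereas SLC7A5 took 33.3%, 24.0% and 32.7%.

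SLC7A5, the leucine exchanger, lies at chr16:87830023-87869488 on the minus strand (GRCh38, GENCODE 29) and was counted 4207 times in the control library, 4221 times with Rg3 and 4410 times with TAM. These raw counts were nearly equal, but the libraries differ in size, and its TMM-scaled CPM was 366 in control, 293 in Rg3 and 443 in TAM. Against control it was called in neither treated library, and TAM was called higher than Rg3 (1.51-fold). The log2 fold change was -0.32 with Rg3 (95% interval -0.38 to -0.26) and 0.27 with TAM (0.21 to 0.34), and with the trend removed 0.30 and 0.14, so that the sign with Rg3 depended on that step. Of its 50-base stretches, 5.61% recur in other annotated genes, among them the pseudogenes SLC7A5P1 and SLC7A5P2, which had 10 to 17 and 29 to 35 counts per library.

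SLC3A2, the shared heavy chain at chr11:62856102-62888875 on the plus strand, had 2010 counts in control, 2053 in Rg3 and 3222 in TAM. The TAM library stood above the other two, by a log2 fold change of 0.89 against control (0.81 to 0.97), a 1.85-fold difference. With the trend removed it was 0.49, within the limits. With Rg3 it was -0.30 (-0.39 to -0.21), and 0.18 with the trend removed. SLC7A6, its other light chain among the members, gave 468, 665 and 321 counts and was called in neither library, with log2 fold changes of 0.18 with Rg3 and -0.34 with TAM, and -0.04 and 0.13 with the trend removed. Exons of SLC7A6 (chr16:68264516-68301823, plus strand) overlap SLC7A6OS on the opposite strand over 44.4% of their bases. Whether strand was used in counting is not stated, so reads of the pair may not be told apart. SLC7A6OS itself had 154, 154 and 159 counts.

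Ratios of counts within a library do not depend on scaling, and were taken for related members after their values were seen. SLC7A5 had 2.09 counts per count of SLC3A2 in control (1.98 to 2.21), 2.06 in Rg3 (1.95 to 2.17) and 1.37 in TAM (1.31 to 1.43). The control and Rg3 libraries overlapped, and the TAM library lay below both, with a ratio 0.654 times that of control (0.609 to 0.702). These transcripts differ by 3.67 percentage points in GC content, and are 4537 and 2222 bases long. Fold changes with TAM also followed transcript length (Spearman's rho -0.48 across 11022 genes). With the trend left in, the balance of SLC7A5 to SLC3A2 transcripts was thus lower in the TAM library, where SLC3A2 was called higher and SLC7A5 was within the limits. With the trend removed, the log2 fold changes with TAM were 0.14 for SLC7A5 and 0.49 for SLC3A2, both within the limits. The part of length and base composition in this ratio was not tested.

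SLC38A2, which cells are known to raise when amino acids are short, lies at chr12:46358189-46372867 on the minus strand and had 1907 counts in control, 4996 in Rg3 and 1257 in TAM. The Rg3 library stood well above the other two. The log2 fold change was 1.06 with Rg3 (0.99 to 1.14), a 2.09-fold difference, and -0.40 with TAM (-0.50 to -0.29). Its neighbour SLC38A1 (chr12:46183063-46270017, minus strand) gave 1118, 2336 and 567 counts, with 0.74 with Rg3 (0.63 to 0.84) and -0.77 with TAM (-0.92 to -0.63). Both system A carriers were thus high in the Rg3 library and low in the TAM library, although SLC38A2 with TAM stayed within the limits and passed them only with library totals (-0.60). Their transcripts are the most AT-rich of the 9, at 38.1% and 41.3% GC. Genes with at least 50 counts and under 40% GC had a median log2 fold change of 0.83 with Rg3 and -0.59 with TAM, and those from 40% to 45% GC had 0.57 and -0.35. With the trend removed, SLC38A2 was at 0.21 and 0.29 and SLC38A1 at 0.11 and 0.04, all within the limits. Per count of SLC38A1 there were 1.71 counts of SLC38A2 in control (1.58 to 1.84), 2.14 in Rg3 (2.04 to 2.25) and 2.22 in TAM (2.01 to 2.45). With the trend left in, both treated libraries thus leaned toward SLC38A2. The transcripts of SLC38A2 and SLC38A1 are 4888 and 8066 bases long. The part of length and base composition in this ratio was not tested.

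**Figure D2:**
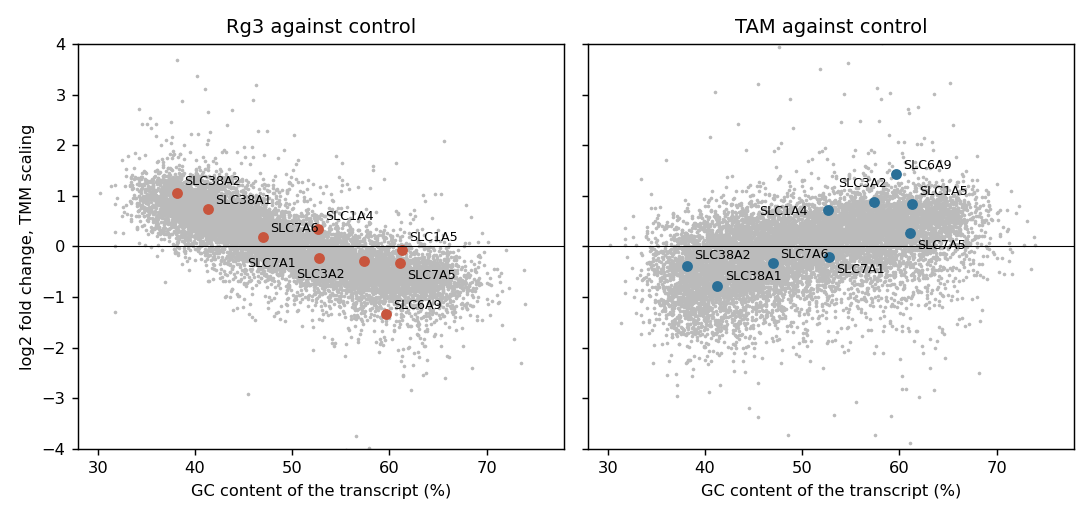
Log2 fold change against GC content of the transcript (%) for Rg3 (left) and TAM (right), with grey points for genes with at least 50 counts and coloured points for the 9 members. SLC38A2 and SLC38A1 sit inside the grey cloud at its AT-rich end, while SLC6A9 lies at its lower edge with Rg3 and near its upper edge with TAM. The vertical axis stops at -4 and 4.

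SLC1A5, the glutamine exchanger at chr19:46774883-46788594 on the minus strand, had 1454 counts in control, 1746 in Rg3 and 2243 in TAM. It was highest in the TAM library, by a log2 fold change of 0.83 (0.74 to 0.93), and differed from control by -0.06 with Rg3 (-0.16 to 0.04). With the trend removed it was at 0.46 with TAM and 0.57 with Rg3, the latter just inside the limit. A transcript annotated on the opposite strand, AC008622.2, shares 25.8% of its stretches. SLC1A4, its paralog (chr2:64988477-65023865, plus strand), was counted 235, 372 and 335 times. Both treated libraries were above control for SLC1A4, by 0.34 with Rg3 (0.10 to 0.58), within the limits, and 0.72 with TAM (0.47 to 0.96), called higher. This call was kept with the trend removed (0.77) and lost with library totals (0.51). SLC1A4 and SLC1A5 were the members with the largest positive values in the Rg3 library after removal of the trend, both at 0.57.

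SLC7A1, the arginine and lysine carrier at chr13:29509410-29595688 on the minus strand, had 1086, 1160 and 814 counts in the control, Rg3 and TAM libraries. Its log2 fold changes were -0.23 with Rg3 (-0.35 to -0.11) and -0.21 with TAM (-0.34 to -0.08), and -0.03 and 0.09 with the trend removed. It was called in neither treated library under any of these.

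SLC6A9, the glycine carrier at chr1:43991500-44031467 on the minus strand, had 143 counts in control, 71 in Rg3 and 334 in TAM. The 3 libraries were separated beyond counting error, with Rg3 lowest and TAM highest. With Rg3 it was lower by a log2 fold change of -1.34 (-1.77 to -0.92), at percentile 3.26 of the genes compared, and with TAM it was higher by 1.43 (1.14 to 1.72), a 2.69-fold difference at percentile 97.9. With the trend removed these were -0.76 (-1.19 to -0.34) and 1.11 (0.82 to 1.40), and both calls held. After that step the interval with Rg3 reached inside the limits. Genes from 55% to 60% GC, the class of SLC6A9 (59.6%), had medians of -0.46 with Rg3 and 0.34 with TAM. Per count of SLC3A2, which is 2.22 percentage points lower in GC, there were 0.0711 counts of SLC6A9 in control, 0.0346 in Rg3 and 0.104 in TAM, and these intervals did not overlap. Exons of SLC6A9 overlap CCDC24 on the opposite strand over 7.83% of their bases, and CCDC24 had 189, 176 and 239 counts.

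**Figure D3:**
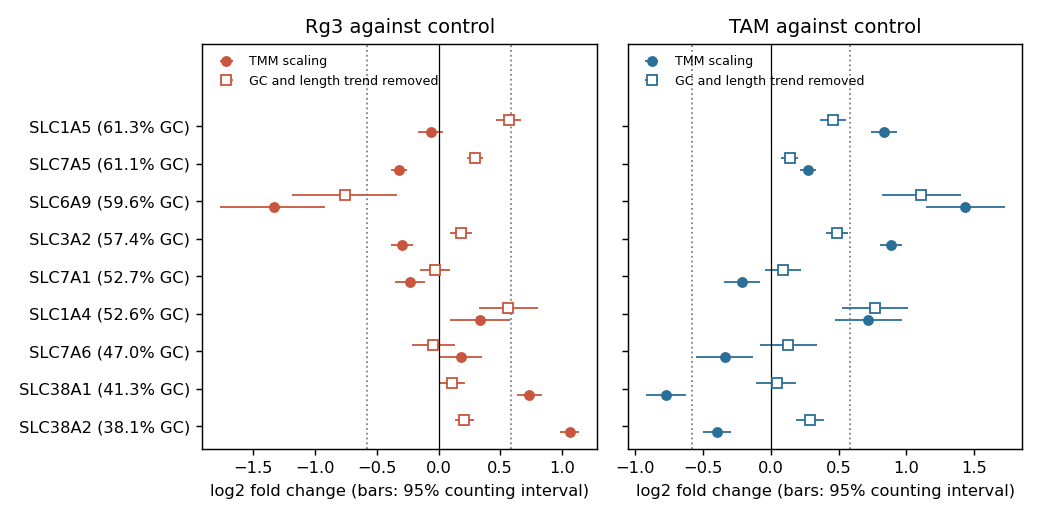
Log2 fold change of each member against control with Rg3 (left) and TAM (right), ordered by GC content, with filled circles for TMM scaling, open squares with the trend removed, bars for the 95% counting interval and dotted lines at folds of 1.5 and 0.67. SLC6A9 stays outside the dotted lines on both sides, and with Rg3 SLC38A1 and SLC38A2 move inside them.

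TAM and Rg3 were given at different doses, and set directly against each other the TAM library was called higher for 4 members (SLC7A5, SLC3A2, SLC1A5 and SLC6A9) and lower for 2 (SLC38A1 and SLC38A2). Among 16493 genes, 30.0% were higher and 35.4% lower. SLC6A9 differed most, by 2.77 (2.39 to 3.16), a 6.81-fold difference. SLC3A2 differed by 1.18 (1.10 to 1.26), SLC38A1 by -1.51 (-1.64 to -1.38) and SLC38A2 by -1.46 (-1.55 to -1.37). With library totals the calls of SLC7A5 (0.25) and SLC1A5 (0.55) were lost, and SLC7A6 was called lower (-0.87). With the trend removed, SLC6A9 was the member still called (1.86), where 17.4% of genes were higher and 19.3% lower, and SLC38A1 (-0.08) and SLC38A2 (0.09) were near 0.

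SLC7A11, the cystine exchanger that shares the heavy chain SLC3A2 and supplies cysteine for glutathione, had 43 counts in control, 312 in Rg3 and 27 in TAM. The Rg3 library stood far above the others, by a log2 fold change of 2.53 (2.07 to 3.03), a 5.79-fold difference, and by 1.63 (1.16 to 2.12) with the trend removed. Its transcript has 35.4% GC. With TAM the value was -0.47 (-1.22 to 0.26), within the limits. There it was 0.39 with the trend removed, and with library totals it was called lower (-0.67). There were 0.0214 counts of SLC7A11 per count of SLC3A2 in control (0.0154 to 0.0289), 0.152 in Rg3 (0.13 to 0.17) and 0.0084 in TAM (0.0055 to 0.0122). These transcripts lie far apart in GC content, as that of SLC3A2 has 57.4%. Genes under 40% GC had medians of 0.83 with Rg3 and -0.59 with TAM, and those from 55% to 60% had -0.46 and 0.34. The part of base composition in this ratio was not tested. Of its stretches 9.29% recur in other annotated genes.

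The list of 24 other plasma membrane carriers includes SLC7A11, and 8 of the 24 had enough counts to be compared. With Rg3, 3 were called higher, SLC7A11 among them, and 4 lower (25.0% and 19.5% of all genes), with a median of -0.45. With TAM 1 was higher and 3 were lower (17.4% and 23.8% of all genes), with a median of -0.41. After removal of the trend 1, SLC7A11, was higher and 2 were lower with Rg3 (8.28% and 10.3% of all genes). By the same step 2 were higher and 2 lower with TAM (12.2% and 16.4%). SLC6A17 gave 175, 105 and 118 counts and was called lower with Rg3 (-1.06), but within the limits there after removal of the trend (-0.55). With TAM it was within the limits (-0.36). SLC43A2, a leucine facilitator, had 346, 242 and 187 counts and was lower with both agents (-0.84 and -0.68), but within the limits in both after removal of the trend (-0.36 and -0.48). SLC6A15 had 30, 57 and 26 counts, with 0.60 with Rg3 and -0.26 after removal. SLC6A14 and SLC7A3 had 0 counts in each library.

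Carriers of the lysosome, which release amino acids toward the cytosol and mTORC1, were called higher for 3 of 6 compared genes with Rg3 and for 1 with TAM, and 0 were lower. Over all genes 25.0% were higher with Rg3 and 17.4% with TAM, so that the list's share with TAM (16.7%) was at the background. Library totals made 1 of 6 lower with TAM, beside 5259 of all 16079 genes. With the trend removed, 3 of 6 were higher with Rg3 and 0 with TAM (8.28% and 12.2% of all genes). Then 0 were lower with either (10.3% and 16.4%). SLC38A9, the arginine sensor of mTORC1 on the lysosome, had 80, 228 and 56 counts, with 1.18 with Rg3, and 0.64 with the trend removed. SLC36A1 (0.61 and 0.71) was past the limit both ways as well. SLC36A4 went from 0.97 to -0.01. PQLC2, an exporter of cationic amino acids, was higher with TAM (0.85), and within the limits there once the trend was removed (0.37), but higher with Rg3 then (0.63).

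Enzymes of amino acid synthesis were called higher for 3 of 11 genes with Rg3 and 3 with TAM, and 1 and 0 were lower. The shares called higher, 27.3% in both, stood beside 25.0% and 17.4% of all genes. Of all genes 19.5% and 23.8% were called lower. Library totals gave 5 of 11 higher with Rg3, beside 5180 of all 16487 genes. With the trend removed, 3 were higher with Rg3 and 3 with TAM (8.28% and 12.2% of all genes). Then 0 were lower with either (10.3% and 16.4%). ASNS, the asparagine synthetase, had 607 counts in control, 1906 in Rg3 and 749 in TAM. It was higher by 1.32 with Rg3, and by 1.10 with the trend removed. PSAT1 of the serine pathway was at 1.09 with Rg3 and 0.51 after removal. PHGDH, the first enzyme of that pathway, was higher by 1.05 with TAM (2158 to 3862 counts), and by 0.68 with the trend removed. With Rg3 it was within the limits (0.09), and called higher with the trend removed (0.61). PYCR1, which makes proline, was at 0.99 with TAM, and at 0.50 after removal.

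Regulators of the ATF4 arm were called higher for 5 of 14 genes with Rg3 and 6 with TAM, and lower for 0 and 2. All genes were higher in 25.0% and 17.4% and lower in 19.5% and 23.8%. The list's medians were 0.44 and 0.52. With library totals it had 5 of 14 higher and 4 lower with TAM, beside 1576 and 5259 of all 16079 genes. With the trend removed 8 were higher with Rg3 and 4 with TAM (8.28% and 12.2% of all genes), with medians of 0.68 and 0.11. CHAC1, which degrades glutathione, had 118, 242 and 453 counts, with 0.71 with Rg3 and 2.15 with TAM, and DDIT3 (CHOP) had 228, 680 and 382, with 1.25 and 0.95. Both genes were called higher in both libraries, before and after removal. DDIT4, an inhibitor of mTORC1, was higher with TAM (1.32) and not with Rg3 (-0.53). EIF2AK2 was lower with TAM (-1.25), and within the limits after removal (-0.36).

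Of the mTORC1 amino acid sensing genes, 7 of 18 were higher and 3 lower with Rg3, and 4 of 17 were higher and 4 lower with TAM. The shares of all genes were 25.0% and 19.5%, and 17.4% and 23.8%. With library totals the list had 1 of 17 higher and 6 lower with TAM, beside 1576 and 5259 of all 16079 genes. RRAGD, a Rag GTPase that recruits mTORC1 to the lysosome, had 40, 158 and 16 counts (1.66 with Rg3, -1.12 with TAM). SESN1, a leucine-sensing sestrin, had 53, 158 and 29 (1.25 and -0.66). After removal of the trend, 5 of 17 were higher and 0 lower with Rg3 (8.28% and 10.3% of all genes). RRAGD (1.06) and SESN1 (0.74) were still higher with Rg3 then. With TAM 1 gene of the list, RRAGB (-1.18), was called after that step, and lower (16.4% of all genes). LAMTOR3 went from 1.14 to 0.26 with Rg3.

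**Figure D4:**
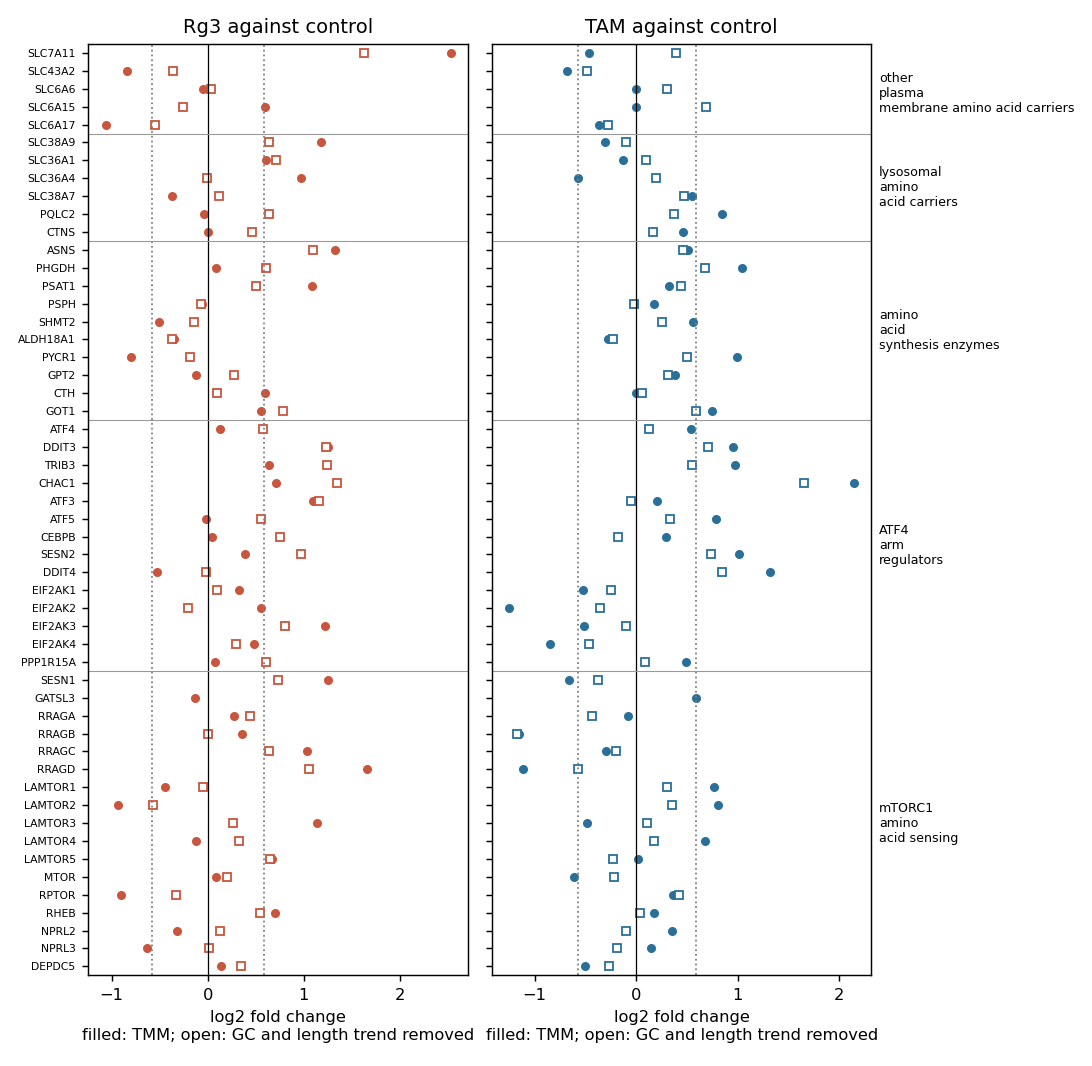
Log2 fold change against control with Rg3 (left) and TAM (right) for the listed genes with at least 50 counts in any library, grouped by list, with filled circles for TMM scaling, open squares with the trend removed and dotted lines at folds of 1.5 and 0.67. SLC7A11 stands furthest right with Rg3 (2.53) and CHAC1 with TAM (2.15), and GATSL3 has no open square because no transcript was matched to it.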

How the data were processed

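RNA of PANC-1 cells was sequenced on an Ion Proton, 1 library per condition. Per the study's methods the reads were assessed with FAST-QC, aligned with TopHat and assembled with MAQ. The labels name GRCh38, and the counting tool, the annotation and the use of strand are not given in the sources used here. The authors deposited raw counts per gene symbol, and the same genome build was used for positions (GENCODE 29).

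From the counts, TMM factors were computed with edgeR 4.0.16 in R 4.3.3 (1.02 for control, 1.12 for Rg3 and 0.879 for TAM). Folds were taken in Python 3.11.15 for genes that reached 10 counts in a library of the pair, with counts under 3 raised to 3 and no fold where both were at or under 3. Intervals are Clopper-Pearson. The Limma criteria of the study need replicates and could not be fitted. GC content and length came from the longest protein-coding GENCODE transcript, or the longest where none is coding, and were found for 86.6% (Rg3) and 87.2% (TAM) of the genes compared. The trend was a loess fit with span 0.3 over genes with at least 50 counts. Shared stretches are 50 bases long and were searched on both strands. The steps were tested on simulated counts that held counting error only. Such counts cannot show how far a call from 1 library would repeat.

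Alternatives were library totals, size factors from DESeq2 1.42.0, count minimums of 1 and 50, limits of 2 and 0.5, removal of the trend, and the exact test of edgeR at biological variation set to 0.2 or 0.4 by assumption, with Benjamini-Hochberg adjustment. All 9 members, SLC7A11, and from each other list up to 4 genes with the largest change and at least 50 counts were to be named, and further names (ATF4-arm, pseudogene and neighbouring genes, genes at 0 counts) were chosen after their values were seen, as were the promoter motifs and the ratios of counts. The members and lists were chosen with earlier results of these data known. BMT2, on the mTORC1 list, was not analysed here.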

Additional observations from a re-analysis of the deposited data

How the results depend on the processing

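With 1 library per condition, these calls compare libraries, and a difference between cultures or preparations cannot be told apart from a treatment. No paired analysis was possible because no condition has more than 1 library. The cause of the changes below was not tested. DESeq2's size factors and both other count minimums changed 0 of the 27 calls of members (9 genes, 3 comparisons). Library totals changed 5 calls and 2 signs, and removal of the trend changed 10 calls and 12 signs.

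With library totals, 2 members were lower with TAM and 2 were higher in TAM than in Rg3. Over all genes 1576 were then higher and 5259 lower with TAM, and 3105 higher in TAM than in Rg3. With a minimum of 50 counts, 2139 genes were lower with Rg3 and 2529 lower with TAM.

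With the GC and length trend removed, 0 members were higher with Rg3, 2 higher and 0 lower with TAM, and 1 higher and 0 lower in TAM than in Rg3. Over all genes with Rg3 1182 were then higher and 1475 lower, with TAM 1712 were higher and 2303 lower, and 2477 higher and 2752 lower in TAM than in Rg3. Among the 12 sign changes, those of members that had been called were SLC38A1 with TAM (0.0426) and, between TAM and Rg3, SLC7A5 (-0.18), SLC1A5 (-0.12) and SLC38A2 (0.0918). The others were of members within the limits, SLC7A5, SLC3A2, SLC1A5 and SLC7A6 with Rg3, SLC7A1, SLC38A2 and SLC7A6 with TAM, and SLC7A6 between TAM and Rg3.

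With limits of 2 and 0.5, 1 member was higher with Rg3, 1 higher and 0 lower with TAM, and 2 higher in TAM than in Rg3. Over all genes these limits gave, with Rg3, 1470 higher and 1149 lower, with TAM 862 higher and 1824 lower, and 2781 higher in TAM than in Rg3.

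Calls with edgeR's exact test also needed an adjusted p under 0.05. With an assumed variation of 0.2, 0 members were higher and 0 lower with Rg3. With TAM 1 was higher, SLC6A9, which only just passed that threshold, and 0 were lower, and 2 were higher in TAM than in Rg3. Over all genes with Rg3 64 were higher and 92 lower, with TAM 109 were higher and 365 lower, and 2156 higher and 2939 lower in TAM than in Rg3. With an assumed variation of 0.4, 0 members were called in any comparison. Over all genes 0 were then higher and 1 was lower with Rg3, 0 were higher and 1 was lower with TAM, and 0 were called in TAM against Rg3. SLC7A11 with Rg3 had an adjusted p of 0.000158 at 0.2 and 1 at 0.4.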

Other observations

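Among 8425 genes with at least 100 counts in every library, the genes nearest to SLC7A5 by both log2 fold changes against control were THOC5, TBL2 and ZNF212, at distances of up to 0.0072. Nearest to SLC3A2 was EIF2B2, a subunit of the factor that the integrated stress response acts on, at a distance of 0.0049. EIF2B2 had 576 counts in control, 587 in Rg3 and 921 in TAM. Each comparison shares the control library, and a likeness over 3 libraries says nothing of shared function or control.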
